A study of Mus musculus with 138 samples.

Results

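The lungs of 138 mice were ordered by a clock score, and the 35 with the highest score, here the evening phase group, were compared with the 35 with the lowest, the morning phase group. The score was the mean z value over mice of Dbp, Nr1d1, Per3 and Tef minus the mean z value of Arntl (Bmal1) and Npas2, each read from its brightest probe in the deposited log2 values. The other 68 mice lay between the groups. The groups are therefore named for the state of their clock genes, not for a recorded hour: the labels used here give no time of day at harvest. All mice, in both groups alike, came from partially inbred pre-Collaborative Cross lines, each descended from the 8 founder strains 129S1/SvImJ, A/J, C57BL/6J, CAST/Ei, NOD/LtJ, NZO/H1LtJ, PWK/Ph and WSB/Ei, with 1 mouse from each line. Every mouse was sensitized intraperitoneally with 10 ug of Der p 1, the cysteine protease allergen of the house dust mite, and challenged with 50 ug on day 15. The right lower lung lobe was taken on day 18, which is 72 hours after challenge. There were no unchallenged mice, and age and sex are not given in the labels used here. Whole-lobe RNA was hybridised to Illumina WG6v2 arrays, 1 array per mouse.

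The mammalian clock is a transcription loop present in most cells of the lung. CLOCK or its relative NPAS2 pairs with BMAL1, the product of Arntl, binds E-boxes and activates the Per and Cry genes, whose proteins return to block it, as does the product of Ciart. The same activator drives Nr1d1 and Nr1d2, which encode the REV-ERB repressors. These act on ROR elements to shut down Arntl, Npas2, Clock and Nfil3, while ROR receptors activate through the same element. A further arm consists of the PAR bZIP activators DBP, TEF and HLF, which bind D-boxes, and the repressor NFIL3, which competes for the same sites. In mouse tissues Dbp, Nr1d1, Per3 and Tef peak in the light phase or around its end, and Arntl and Npas2 peak near the end of the dark phase.

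Promoter sequences of 6 genes are shown because they hold letter matches to the elements through which these arms are known to act. Whether clock proteins act through these matches was not tested. They come from RefSeq on build GRCm38.p6 and run from 250 bases before a transcription start to 50 bases after it, on the strand of the gene. Capitals mark matches, on either strand, to an E-box (CACGTG), a D-box (TTANGTAA) or a ROR element (TNGGTCA), and no marked match overlapped another. Ciart (chr3:95882179-95882478, minus strand) has 3 E-boxes, Tspan4 (chr7:141476130-141476429, plus strand, the second listed start) has 1 E-box, and Per3 (chr4:151044616-151044915, minus strand) has 2 D-boxes followed by 1 ROR element. Nfil3 (chr13:52980990-52981289, minus strand) and Leo1 (chr9:75441274-75441573, plus strand) have 1 ROR element each, and Arntl (chr7:113207261-113207560, plus strand, the second listed start) has 3.
Ciart: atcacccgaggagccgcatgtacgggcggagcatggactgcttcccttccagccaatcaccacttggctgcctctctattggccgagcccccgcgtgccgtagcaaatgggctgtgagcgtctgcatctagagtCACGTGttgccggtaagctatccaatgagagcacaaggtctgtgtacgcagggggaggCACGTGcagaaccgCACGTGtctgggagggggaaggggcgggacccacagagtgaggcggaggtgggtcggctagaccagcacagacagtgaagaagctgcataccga
Tspan4: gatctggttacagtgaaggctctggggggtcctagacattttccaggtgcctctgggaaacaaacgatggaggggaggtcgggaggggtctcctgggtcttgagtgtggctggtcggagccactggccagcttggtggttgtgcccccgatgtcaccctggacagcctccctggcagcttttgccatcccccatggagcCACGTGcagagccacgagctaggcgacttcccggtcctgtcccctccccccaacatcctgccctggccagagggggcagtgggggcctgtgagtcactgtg
Per3: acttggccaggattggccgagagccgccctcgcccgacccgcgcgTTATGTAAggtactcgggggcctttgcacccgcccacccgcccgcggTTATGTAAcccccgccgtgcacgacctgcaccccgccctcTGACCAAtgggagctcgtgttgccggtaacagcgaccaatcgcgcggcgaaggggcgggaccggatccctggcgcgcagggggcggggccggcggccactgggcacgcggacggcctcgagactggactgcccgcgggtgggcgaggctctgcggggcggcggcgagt
Nfil3: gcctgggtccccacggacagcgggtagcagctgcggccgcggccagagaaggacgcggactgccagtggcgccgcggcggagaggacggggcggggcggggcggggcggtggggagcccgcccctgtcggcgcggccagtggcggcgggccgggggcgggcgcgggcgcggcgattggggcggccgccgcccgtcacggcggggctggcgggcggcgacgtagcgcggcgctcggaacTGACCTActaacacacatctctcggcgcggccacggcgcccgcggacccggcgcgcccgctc
Arntl: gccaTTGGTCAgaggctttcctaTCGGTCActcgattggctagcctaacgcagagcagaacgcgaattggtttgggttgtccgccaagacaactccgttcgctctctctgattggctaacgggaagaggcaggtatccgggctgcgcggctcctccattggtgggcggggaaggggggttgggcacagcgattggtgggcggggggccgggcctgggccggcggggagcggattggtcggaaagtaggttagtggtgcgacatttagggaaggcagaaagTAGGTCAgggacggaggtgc
Leo1: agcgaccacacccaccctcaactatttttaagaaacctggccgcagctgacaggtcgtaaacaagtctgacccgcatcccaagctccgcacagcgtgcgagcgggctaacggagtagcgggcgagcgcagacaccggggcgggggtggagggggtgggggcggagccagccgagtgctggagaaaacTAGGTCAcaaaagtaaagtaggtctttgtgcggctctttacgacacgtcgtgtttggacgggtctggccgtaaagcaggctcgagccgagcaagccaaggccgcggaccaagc

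Counted from the first transcribed base as 1, the E-boxes of Ciart began at -116, -58 and -44 and that of Tspan4 at -51. The window of the first listed start of Tspan4 held no match to any of the elements. The D-boxes of Per3 began at -205 and -158, and the ROR element of Nfil3 began at -12, 1 of the 3 in Arntl at 31. In the windows of all 32851 listed promoters, 7.15% held an E-box, 2.32% a D-box and 11% a ROR element. Of the other windows examined, those of both listed starts of Tef held an E-box, at -127 and -138, that of the second start also a ROR element, and that of Cry2 held a ROR element at -133. The windows examined for Dbp, Nr1d1, Nr1d2, Usp2, Npas2, Clock and Por held none of these letters, which says nothing about elements elsewhere in those genes.

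The 6 score genes set the groups, so their values are given as a description with no test. All levels are normalized log2 intensities, on which 1 unit is a doubling, and levels are not compared between genes because probes differ in brightness. Dbp, the PAR bZIP activator, ran from 10.78 through a median of 11.51 to 12.10 in the evening group and from 7.09 through 8.84 to 9.68 in the morning group. It was the only score gene whose groups did not overlap at all. Nr1d1 (REV-ERB alpha) ran from 8.53 through 9.42 to 10.18 against 4.57 through 8.05 to 9.64, and Tef from 9.11 through 9.83 to 10.41 against 7.90 through 8.83 to 9.56. Per3 ran from 4.46 through 6.73 to 7.80 against 4.36 through 5.25 to 6.42, and 25 of 35 evening mice lay above every morning mouse. On the opposite side, Arntl ran from 4.33 through 5.07 to 5.95 in the evening group and from 5.69 through 6.59 to 7.63 in the morning group. Npas2 ran from 4.26 through 4.46 to 4.83 against 4.63 through 5.56 to 7.01, and it was detected in 66 of the 138 mice. For Arntl 32 of the 35 morning mice and for Npas2 34 of them lay above every evening mouse.

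The score itself ran from -4.14 to 3.28 with a median of 0.111, and its medians were 1.82 in the evening group and -2.07 in the morning group. The last evening mouse had a score of 1.21 and the next mouse outside 1.17, and the last morning mouse had -0.867 and the next outside -0.651. All 35 evening mice had positive mean z values for the evening genes and negative ones for the morning genes, and 34 of the 35 morning mice showed the reverse on both sides. The other mice did not sit at the same point between the groups for every gene. Their mean lay 77.2% of the way from the morning to the evening mean for Nr1d1 and 66.1% for Dbp, but 54.1% for Tef and 39.7% for Per3. For the morning genes, whose path runs downward, it lay 51.6% of the way for Arntl and 68.5% for Npas2.

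**Figure D1:**
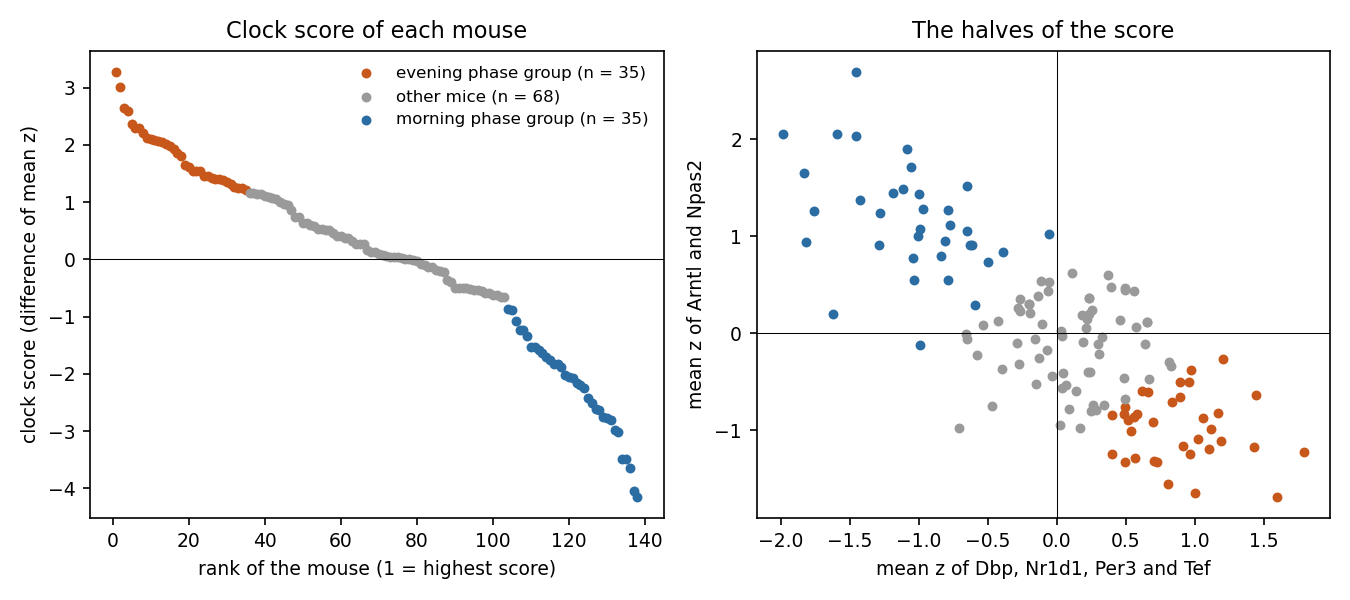
The left panel plots the clock score of each of the 138 mice (difference of mean z values) against the rank of the mouse, and the right panel plots the mean z of Arntl and Npas2 against the mean z of Dbp, Nr1d1, Per3 and Tef. Each point is 1 mouse, and the 35 evening mice (orange) and 35 morning mice (blue) sit in opposite corners of the right panel, with the 68 others (grey) between them.

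The arrays of the series detected between 19075 and 21472 probes each, with array medians of raw intensity between 32.1 and 68.7. The median correlation of an array with the others was 0.911 at the lowest, in a mouse of neither group, and 0.953 at the lowest within the 70 compared. Outside the 6 score genes, 16510 genes were tested between the groups with limma, and 0.933% of them passed an adjusted p under 0.05 while 16356 genes did not. Of the genes tested, 0.678% were called higher in the evening group and 0.254%, which is 42 genes, lower. With the slope on the score over all 138 mice in place of the groups, 200 genes (1.21%) rose with the score and 92 (0.557%) fell. In the group comparison 44 called genes differed by over 0.5 log2 units and 9 by over 1, and the median difference of all genes tested was 0.01. At an unadjusted p under 0.05 there were 1754 genes. Because the mice were grouped by expression on the same arrays, the test shows which other transcripts varied with the score, not the effect of a treatment.

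**Figure D2:**
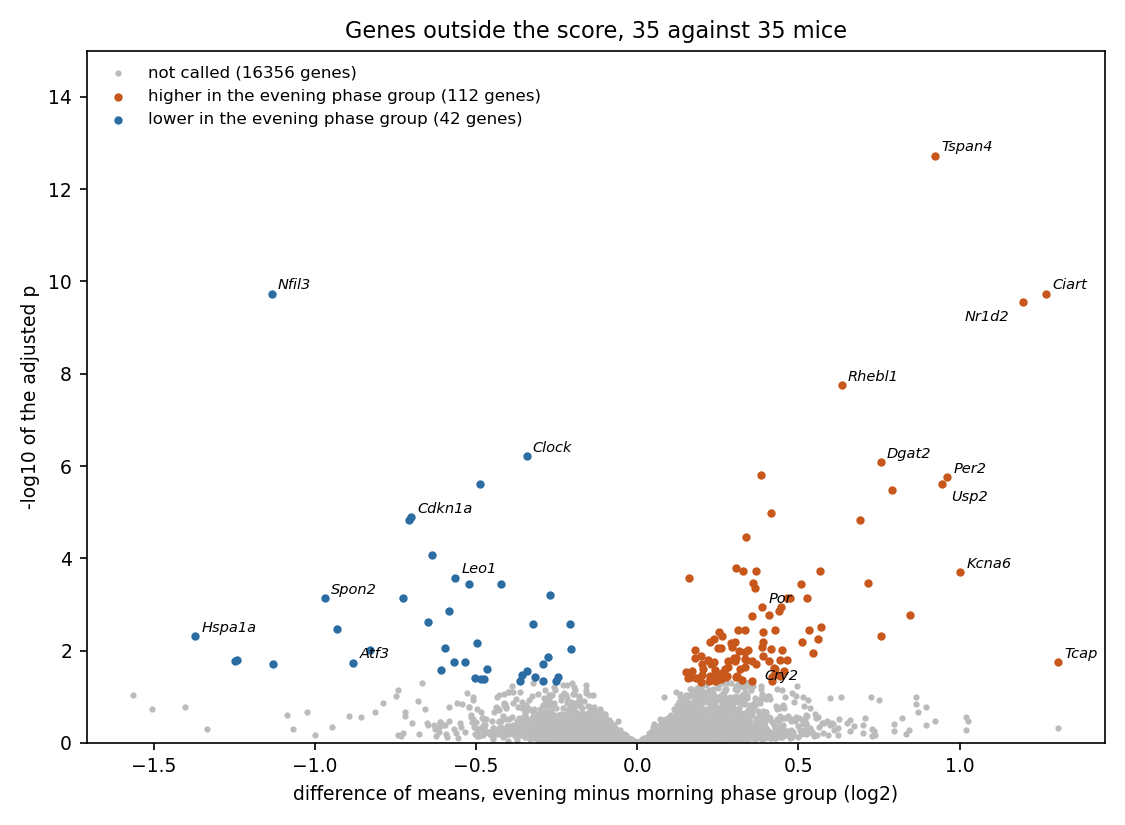
Each point is 1 of the 16510 genes tested, placed by the difference of the group means (evening minus morning, log2) and by -log10 of its limma adjusted p. Genes called higher in the evening group (0.678%) are orange and the 42 called lower are blue, and Tspan4, Nfil3, Ciart and Nr1d2 stand above all others.

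Of the repressors fed by E-boxes, 3 of the 5 tested members rose in the evening group and none fell, beside 0.678% of all genes tested that rose, and the median difference of the list was 0.37. Ciart, also called Chrono, ran from 7.29 through a median of 8.61 to 9.50 in the evening group and from 5.71 through 7.14 to 8.24 in the morning group. Of the evening mice, 22 lay above every morning mouse and all 35 above the morning median, and the difference of 1.27 ± 0.13 (SE) had an adjusted p of 1.84e-10. Of 3 kept probes of Ciart, the others followed the tested one across mice with correlations of at least 0.875. Per2 ran from 9.58 through 10.52 to 11.25 against 8.25 through 9.53 to 11.25, so that the ranges ended at the same height although all 35 evening mice lay above the morning median. A single evening mouse exceeded every morning mouse, and the difference was 0.96 ± 0.14 with an adjusted p of 1.74e-06. Cry2, a cryptochrome repressor of the activator pair, ran from 7.25 through 7.99 to 8.90 against 6.47 through 7.70 to 8.26, a smaller difference of 0.37 ± 0.09 (adjusted p 0.0194). The other kept probe of Cry2 followed the tested one with a correlation of only 0.089, so this call rests on 1 probe.

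The remaining members of the list did not pass. Per1 ran from 8.89 through 9.94 to 11.12 in the evening group and from 7.96 through 10.04 to 10.78 in the morning group, with a difference of 0.14 ± 0.14 and an adjusted p of 0.766. Its evening median lay below its morning median, unlike that of Per2, and only 14 of 35 evening mice exceeded the morning median. Bhlhe40 (DEC1), another E-box repressor, had medians of 9.99 and 9.97, with a difference of 0.18 ± 0.19 and an adjusted p of 0.785. Cry1 and Bhlhe41 did not pass the detection filter.

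Among the receptors acting on ROR elements, Nr1d2 (REV-ERB beta) rose and Rora did not pass. Nr1d2 ran from 6.32 through 7.88 to 8.68 in the evening group and from 5.33 through 6.56 to 8.52 in the morning group. The ranges overlapped, with 10 morning mice below every evening mouse and 2 evening mice above every morning mouse, and 34 of 35 evening mice were above the morning median. The difference was 1.20 ± 0.13, a 2.29-fold higher level, with an adjusted p of 2.83e-10. Rora, which encodes an activator of the same element, had medians of 9.13 and 8.94 and a difference of 0.15 ± 0.09 (adjusted p 0.576). Rorb did not pass the detection filter.

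The genes repressed through ROR elements lay on the other side, beside 0.254% of all genes tested that fell. Nfil3, the bZIP repressor that opposes DBP and TEF, ran from 7.55 through 8.86 to 9.66 in the evening group and from 8.99 through 9.96 to 11.04 in the morning group. No evening mouse reached the morning median, and 23 morning mice lay above every evening mouse. The difference was -1.13 ± 0.12 with an adjusted p of 1.84e-10. Clock, the partner of BMAL1, ran from 9.63 through 10.08 to 10.35 against 9.96 through 10.38 to 10.74. It moved by far less than Nfil3, at -0.34 ± 0.05, but the spread within groups was small: all 35 evening mice were below the morning median and 21 morning mice were above every evening mouse (adjusted p 6.09e-07). Arntl2 and Hlf did not pass the detection filter, which leaves Clock as the only activator and Nfil3 as the only PAR bZIP family gene outside the score that could be tested.

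**Figure D3:**
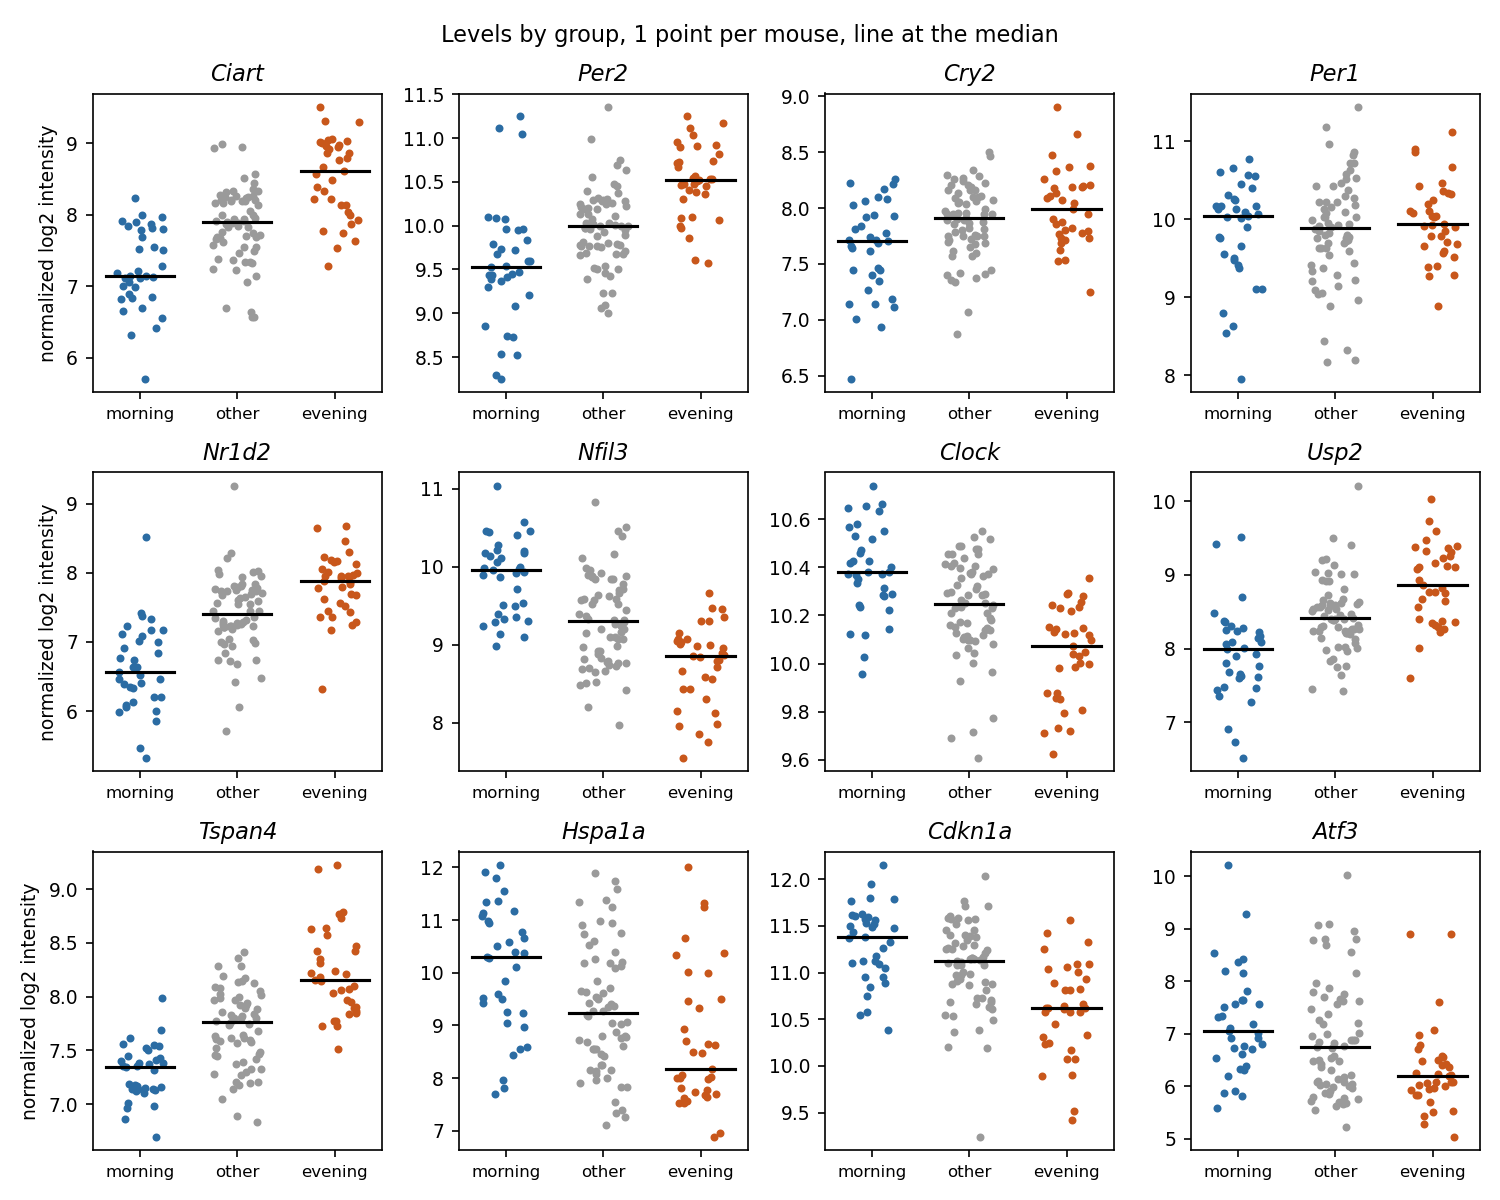
Normalized log2 intensity of 12 genes in the 35 morning mice (blue), the 68 other mice (grey) and the 35 evening mice (orange), 1 point per mouse, with a line at each median. Ciart, Nr1d2 and Tspan4 step upward and Nfil3 and Clock downward, whereas Per1 medians run from 10.04 in the morning group to 9.94 in the evening group.

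Of 11 tested genes known to cycle in many mouse tissues, 2 rose and 2 fell, beside 0.678% and 0.254% of all genes tested, and the list median was 0.02 beside 0.01 for all genes. Tspan4, a tetraspanin membrane protein, ran from 7.51 through 8.15 to 9.22 in the evening group and from 6.70 through 7.35 to 7.99 in the morning group. It had the lowest adjusted p of all genes tested, 1.87e-13, with a difference of 0.92 ± 0.08, and 28 of the 35 morning mice lay below every evening mouse. Usp2, a deubiquitinase that acts on clock proteins, ran from 7.61 through 8.86 to 10.03 against 6.52 through 8.0 to 9.52, with 1 evening mouse below the morning median. Its difference was 0.95 ± 0.14 (adjusted p 2.45e-06). Leo1, a subunit of the PAF1 transcription elongation complex, fell: it ran from 5.44 through 6.54 to 7.32 against 5.94 through 7.23 to 7.70. The difference was -0.57 ± 0.10 (adjusted p 0.000263), but another kept probe of Leo1 had a correlation of only 0.042 with the tested one. Dtx4, an E3 ubiquitin ligase of the Deltex family linked to Notch signalling, fell by 0.42 ± 0.08 (adjusted p 0.000356), and 31 of 35 evening mice lay below the morning median.

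The other outputs did not pass. Nampt, the rate-limiting enzyme of NAD salvage and a rhythmic gene in mouse liver, differed by 0.01 ± 0.16 (adjusted p 0.985). Pnpla2, the adipose triglyceride lipase, had 0.18 ± 0.05 (adjusted p 0.0903). None of 10 tested clock modifiers, which are kinases, ubiquitin ligases and cofactors that act on clock proteins, passed, and their median difference was 0.05. Csnk1d and Csnk1e, the casein kinases that phosphorylate PER proteins, had -0.01 ± 0.06 and 0.13 ± 0.06 (adjusted p 0.985 and 0.465).

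The genes known in mouse liver to respond to DBP, TEF and HLF include enzymes of drug metabolism, and 1 of the 10 tested rose, beside 0.678% of all genes tested, while none fell, with a list median of 0.15. That gene was Por, cytochrome P450 oxidoreductase, which passes electrons to all microsomal P450 enzymes. Por ran from 9.09 through 10.23 to 11.25 in the evening group and from 9.38 through 9.86 to 10.48 in the morning group. The evening range was the wider of the pair at both ends, 32 of 35 evening mice were above the morning median, and the difference was 0.39 ± 0.08 (adjusted p 0.00114). The other kept probe of Por had a correlation of only 0.089 with the tested one, so this call too rests on 1 probe. Cyp2a5, a P450 enzyme abundant in airway epithelium, had medians of 10.46 and 9.85 with a difference of 0.90 ± 0.30, and Cyp2a4, whose sequence is nearly the same, had 0.82 ± 0.32. Neither passed (adjusted p 0.170 and 0.291), and the mice of each group spread widely, from 6.43 to 12.47 for Cyp2a5 in the evening group and from 6.43 to 12.02 in the morning group. A further list held 5 tested genes known to be repressed by REV-ERB in other mouse tissues or macrophages, of which none passed, and the median was -0.19. It left out Nfil3, Clock and Cdkn1a, REV-ERB targets placed in other lists, all of which were called lower. The count therefore does not cover all tested REV-ERB targets. Il6 and Ccl2, a cytokine and a monocyte chemokine on that list, had -0.19 ± 0.08 and -0.27 ± 0.12 (adjusted p 0.334 and 0.395).

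**Figure D4:**
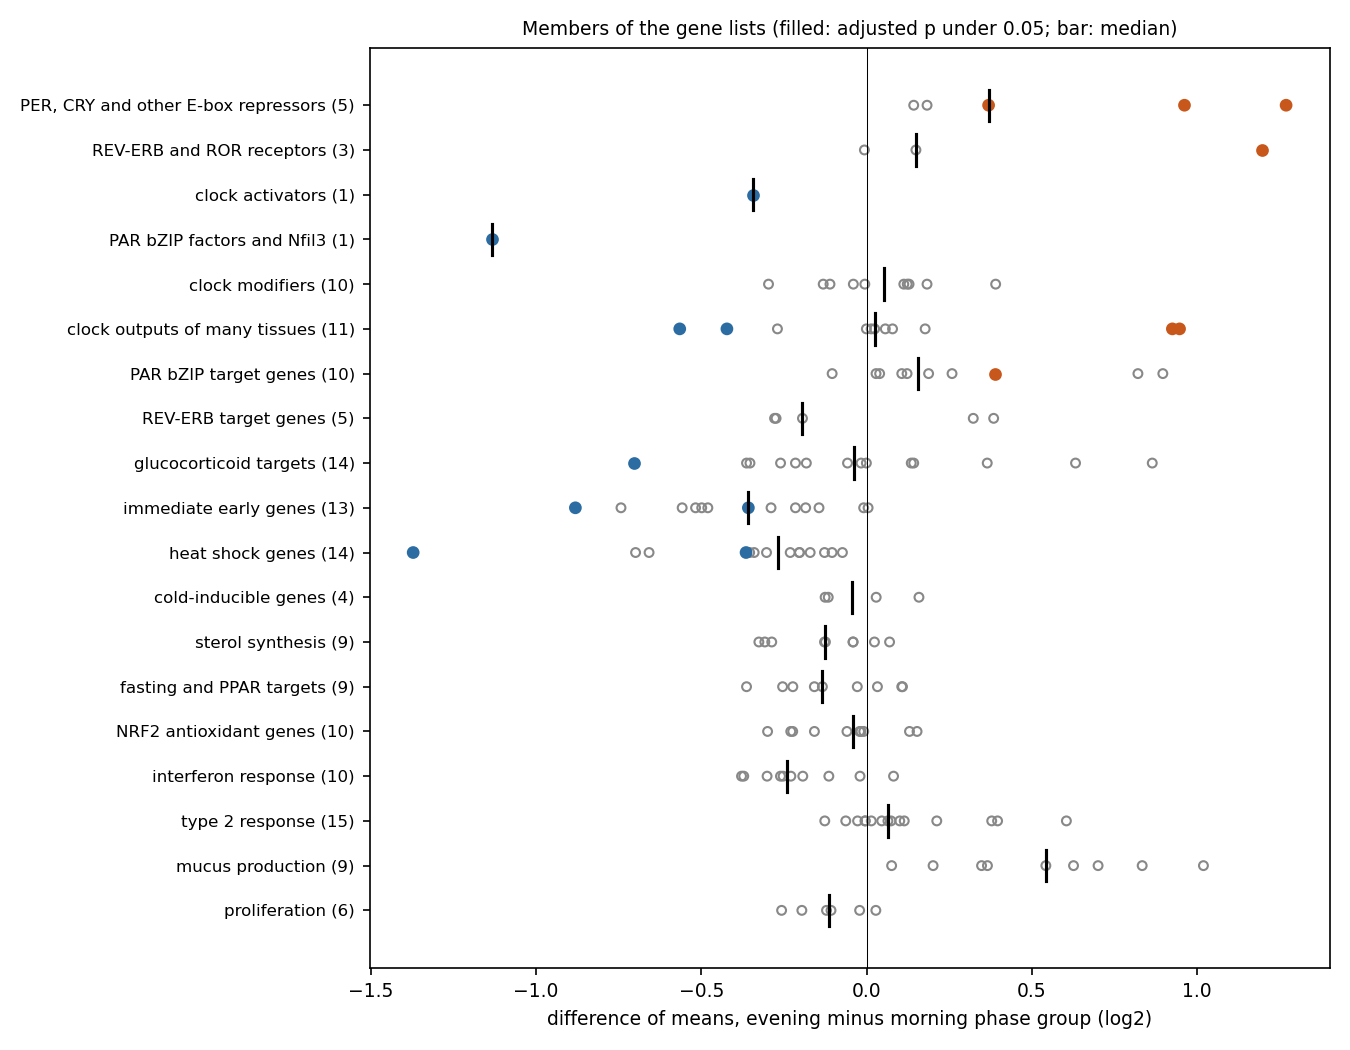
Each circle is 1 tested gene of the list named at the left, with the number tested in brackets, placed by its difference of means (evening minus morning, log2); filled circles passed a limma adjusted p under 0.05 and black bars are list medians. Filled circles lie in the clock lists other than the modifiers, the PAR bZIP targets, the glucocorticoid targets, the immediate early genes and the heat shock genes, and the mucus list has none although its median is 0.54.

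Genes of the heat shock response, the chaperones switched on when proteins misfold, were lower in the evening group for 2 of 14 tested members, beside 0.254% of all genes tested. Hspa1a, the inducible HSP70, had the lowest difference of all the genes called: it ran from 6.89 through a median of 8.18 to 12.01 in the evening group and from 7.69 through 10.30 to 12.04 in the morning group. Both groups thus held mice across nearly the whole range, but 29 of 35 evening mice lay below the morning median, and the difference of -1.37 ± 0.30 had an adjusted p of 0.00487. Chordc1, an HSP90 cochaperone, fell by 0.36 ± 0.10 (adjusted p 0.0453), but lost its call under 10 of 22 alternative settings, among them a fit with title number range as a block. The remaining 12 members did not pass, Bag3 most narrowly (-0.20 ± 0.06, adjusted p 0.0502), yet all 14 differences were negative and the list median was -0.27. Hspa1b, a near-identical copy of Hspa1a whose transcripts can share probes, had -0.66 ± 0.23 (adjusted p 0.185). The mean level of the list ran from 9.01 through 9.34 to 10.55 in the evening group and from 9.15 through 9.76 to 11 in the morning group. With only 20 mice in each group no heat shock gene passed, and within mice of low title numbers none did.

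Of 13 tested immediate early genes, which respond within minutes to hours to stimulation or handling of tissue, 2 fell and none rose, beside 0.254% and 0.678% of all genes tested. The list median was -0.36, and 12 of the 13 differences were negative. Atf3, a stress-induced bZIP factor, ran from 5.04 through 6.20 to 8.90 in the evening group and from 5.59 through 7.06 to 10.21 in the morning group, with a difference of -0.88 ± 0.22 (adjusted p 0.0183). Zfp36 (tristetraprolin), which promotes decay of inflammatory mRNAs, fell by 0.36 ± 0.09 (adjusted p 0.0335), from medians of 11.23 to 10.78. The growth factor-induced zinc finger genes Egr1 and Egr3 had -0.56 ± 0.18 and -0.74 ± 0.21, and Fos had -0.52 ± 0.20, none past the threshold (adjusted p 0.137, 0.0706 and 0.275). With only 20 mice in each group none of the 13 passed. The mean level of the list overlapped widely, from 8.16 through 8.80 to 9.99 against 8.59 through 9.15 to 10.37, and its part in the other differences was not tested.

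Of 14 glucocorticoid targets, genes induced by corticosterone, which itself has a daily rhythm in mice, 1 fell and none rose, beside 0.254% and 0.678% of all genes tested, with a list median of -0.04. The one that fell was Cdkn1a, which encodes the cell cycle inhibitor p21 and is a p53 target and, in mouse liver, a REV-ERB target as well. Cdkn1a ran from 9.42 through 10.62 to 11.57 in the evening group and from 10.39 through 11.38 to 12.15 in the morning group. Only 2 evening mice lay above the morning median, and the difference was -0.70 ± 0.11 with an adjusted p of 1.3e-05. Fkbp5, which encodes a cochaperone of the glucocorticoid receptor, and Zbtb16 had positive differences of 0.63 ± 0.19 and 0.86 ± 0.27 without passing (adjusted p 0.103 for each). Tsc22d3 (GILZ), another gene induced through the receptor, had 0.00 ± 0.08. Per1, which is also a glucocorticoid target, is described above.

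Beyond these lists, the genes named were the 20 largest differences in each direction. Dgat2, the enzyme of the last step of triglyceride synthesis, ran from 7.41 through 8.17 to 8.85 in the evening group and from 6.58 through 7.35 to 8.24 in the morning group, and all 35 evening mice lay above the morning median. Its difference was 0.76 ± 0.10 (adjusted p 8.3e-07). Rhebl1, a RHEB-like GTPase, was likewise above the morning median in all 35 evening mice, at 0.63 ± 0.08 (adjusted p 1.79e-08). Kcna6, a voltage-gated potassium channel, rose by 1.00 ± 0.18 (adjusted p 0.000201) and Rasd2 (Rhes), a small GTPase, by 0.85 ± 0.17 (adjusted p 0.0017). Pik3ip1, an inhibitor of PI3 kinase, rose by 0.53 ± 0.11 (adjusted p 0.00354), and Epop, a Polycomb-associated protein, by 0.53 ± 0.10 (adjusted p 0.00073). Tex11, known from meiosis in the testis, rose by 0.79 ± 0.12 (adjusted p 3.37e-06) and Mbl1, a mannose-binding lectin, by 0.46 ± 0.09. The probes of Tex11 and Mbl1 were dim and not detected in every mouse, and Mbl1 lost its call under 4 of 21 alternative settings. Those of Kcna6, Rasd2, Kbtbd13 and Klhl29 were not detected in every mouse either. The other genes of the 20 were Mettl7a1, Kbtbd13, Car11, Rhpn2, Sh3d21 and Klhl29, with differences between 0.47 and 0.76.

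Tcap (telethonin), a Z-disc protein of striated muscle, had the largest positive difference of the genes called, 1.31 ± 0.32 (adjusted p 0.0176). It ran from 5.71 through 9.11 to 10.91 in the evening group and from 5.24 through 7.62 to 10.19 in the morning group. The other 68 mice had a median of 8.96, and their slope on the score was -0.03 log2 per unit (p 0.917). None of 8 tested cardiac muscle markers passed. Their mean level ran from 5.69 through 8.23 to 10.64 in the evening group and from 5.48 through 8.14 to 9.89 in the morning group, and their part in the Tcap difference was not tested. The call of Tcap was lost under 7 of 22 alternative settings, although its difference stayed between 0.90 and 1.53.

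Among the genes lower in the evening group, Spon2, a secreted matrix protein of the F-spondin family, ran from 8.45 through 9.73 to 11.38 against 8.69 through 10.97 to 11.99. Only 2 evening mice lay above the morning median, and the difference was -0.97 ± 0.18 (adjusted p 0.00073). Adm (adrenomedullin), a vasodilator peptide, fell by 0.71 ± 0.11 (adjusted p 1.49e-05), Apold1, an endothelial early response gene, by 0.93 ± 0.20 (adjusted p 0.00335) and Thbs1 (thrombospondin 1), an inhibitor of vessel growth, by 0.83 ± 0.19 (adjusted p 0.00964). The feedback inhibitors Spry4 and Dusp8 of the MAP kinase pathways fell by 0.60 ± 0.14 and 0.57 ± 0.14 (adjusted p 0.00882 and 0.0175). Ikzf4 (Eos), a transcription factor of regulatory T cells, fell by 0.49 ± 0.07 (adjusted p 2.45e-06), with 34 of 35 evening mice below the morning median, and Vgll3, a TEAD cofactor, by 0.52 ± 0.10 (adjusted p 0.000368). Adra1a, an alpha-1 adrenergic receptor, fell by 0.58 ± 0.12 (adjusted p 0.00139). The remaining genes of the 20, Ccdc184, Rasl11a, Gdpd2 and Stc1, had differences between -0.73 and -0.50, and Stc1 lost its call under 10 of 22 alternative settings. The probes of Apold1, Thbs1, Ccdc184, Adm, Pde4a, Gdpd2, Adra1a and Ikzf4 were not detected in every mouse, which limits what their levels can show.

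A pair of gene families were singled out after their values were seen. Their calls stand beside 0.678% of all genes tested that rose and 0.254% that fell. Picked in this way, they do not show a change of a whole family. Of the cyclic AMP phosphodiesterases of the PDE4 family, which are targets of drugs for airway disease, Pde4a, Pde4b and Pde4d fell. Pde4a ran from 4.51 through 5.51 to 6.33 in the evening group and from 4.95 through 5.90 to 8.15 in the morning group, with a difference of -0.65 ± 0.13 (adjusted p 0.00243). The highest morning values, 7.92 and 8.15, came from mice near the end of the sample order. Pde4a levels there were mostly above those of the mice just before, in all groups, and sample order was not modelled. Pde4b had -0.49 ± 0.13 and Pde4d -0.28 ± 0.07 (adjusted p 0.0417 and 0.0136), and another probe of Pde4d had a correlation of -0.12 with the tested one. Of the arterial gap junction genes, Gja4 (connexin 37) rose while Gja5 (connexin 40) fell. Gja4 ran from 10.14 through 10.53 to 11.02 against 9.20 through 10.24 to 10.94, with a difference of 0.42 ± 0.09 (adjusted p 0.00907). Gja5 ran from 9.11 through 10.11 to 11.16 against 9.92 through 10.67 to 11.34, with a difference of -0.50 ± 0.11 (adjusted p 0.0067), and another kept probe of Gja5 had a correlation of only 0.257 with the tested one. Gja1 (connexin 43) had -0.10 ± 0.07 and did not pass (adjusted p 0.635).

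The promoter windows of the called genes were read for the same letters as above, as a description with no test. A gene with several listed starts counted if any of its windows held the letters. Windows were listed for 79 of the genes called higher in the evening group, and 16 of these (20.3%) held an E-box, compared with 11.1% of the 10332 tested genes with a window. Among the 16 were Ciart, Tspan4, Cipc, which encodes an inhibitor of CLOCK, Eef2k and Mnt. Of 29 genes called lower, 1 (3.45%) held an E-box. A ROR element stood in 14 of the 79 (17.7%) and in 4 of the 29 (13.8%), the latter Leo1, Nfil3, Plaur and Wsb1, compared with 11.9% of genes tested. A D-box stood in 1 gene of each direction, Gper1 and Pde4b, compared with 1.99%.

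Marker genes of 17 cell types, 120 genes in all, held no call in either direction, beside 0.933% of all genes tested that were called. At so low a share, the lack of calls does not show that the cell types were equal. The median difference of the markers was -0.01. In whole-lobe RNA fewer cells of a type and less RNA per cell cannot be told apart. Markers of alveolar type 1 and type 2 cells were at high levels in both groups. The mean level of the type 2 list ran from 10.51 through 11.38 to 11.84 in the evening group and from 10.35 through 11.45 to 11.90 in the morning group, and the type 1 list had medians of 11.65 and 11.62. Endothelial markers had medians of 11.04 and 11.07, ciliated cell markers 8.43 and 8.49, and club cell markers 11.28 and 11.18. Eosinophil markers, which vary with the allergic response, ran from 4.51 through 6.57 to 7.74 against 4.60 through 6.50 to 8.51. Neutrophil markers had medians of 7.73 and 7.72 with 0 of 8 called, although the median of their single-gene differences was 0.38. Markers of monocytes and dendritic cells had the most negative median of single-gene differences of the 17 lists, -0.24, with 6 of 7 below 0 and none called. Their mean level ran from 5.25 through 5.81 to 6.36 in the evening group and from 5.39 through 6.06 to 7.09 in the morning group, and their part in the lower immediate early and heat shock levels was not tested.

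No gene list of the allergic response held a call, beside 0.933% of all genes tested that were called. None of 15 tested genes of the type 2 response passed, with a list median of 0.06 and mean levels from 5.87 through 7.44 to 8.47 against 5.97 through 7.11 to 8.78. None of 9 tested mucus genes passed either, but all 9 differences were positive and the list median was 0.54. In the 68 mice of neither group the slopes of the same 9 genes on the score were all negative, between -0.72 and -0.21 log2 per unit, so the direction between the outer groups was not that among the mice between them. The mean mucus level spread widely in both groups, from 4.79 through 8.54 to 10.48 in the evening group and from 5.34 through 7.65 to 9.93 in the morning group. Foxa3 and Tff1, a transcription factor of goblet cells and a trefoil peptide, had the lowest adjusted p values among them, at 0.63 ± 0.25 and 1.02 ± 0.39 (adjusted p 0.301 and 0.278). Of 10 interferon-induced genes none passed and 9 had negative differences, with a median of -0.24. Sterol synthesis (median -0.12), fasting and PPAR targets (-0.13), antioxidant genes of NRF2 (-0.04), cold-inducible genes (-0.04) and proliferation genes (-0.11) held no call. Misses of the threshold at 35 mice per group do not show that these genes were equal.

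The 68 mice of neither group gave a check on mice that the group comparison did not use, over a narrow span of the score. Their slope on the score was fitted for all 16510 genes, none of which passed an adjusted p under 0.05 in limma, while 1732 (10.5%) had an unadjusted p under 0.05. Of the genes called between the groups, 130 (84.4%) had a slope of the same sign, beside 49.9% of the genes not called. These were 95 of the higher genes and 35 of the 42 lower genes, and 38 of the 130 had an unadjusted p under 0.05. No called gene had a slope of the opposite sign at that level. Usp2 had 0.37 ± 0.09 log2 per unit of score (p 0.000203), Ciart 0.38 ± 0.10 (p 0.000478), Tspan4 0.26 ± 0.07 (p 0.00045), Per2 0.31 ± 0.09 (p 0.000848) and Nfil3 -0.45 ± 0.12 (p 0.000225), all unadjusted. Clock had -0.12 ± 0.04 (p 0.00733) and Cdkn1a -0.27 ± 0.09 (p 0.00396). Nr1d2 had a slope of only 0.08 ± 0.12 (p 0.471), Hspa1a -0.18 ± 0.26 (p 0.485) and Cry2 0.06 ± 0.07 (p 0.416), although all of these differed between the outer groups.

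**Figure D5:**
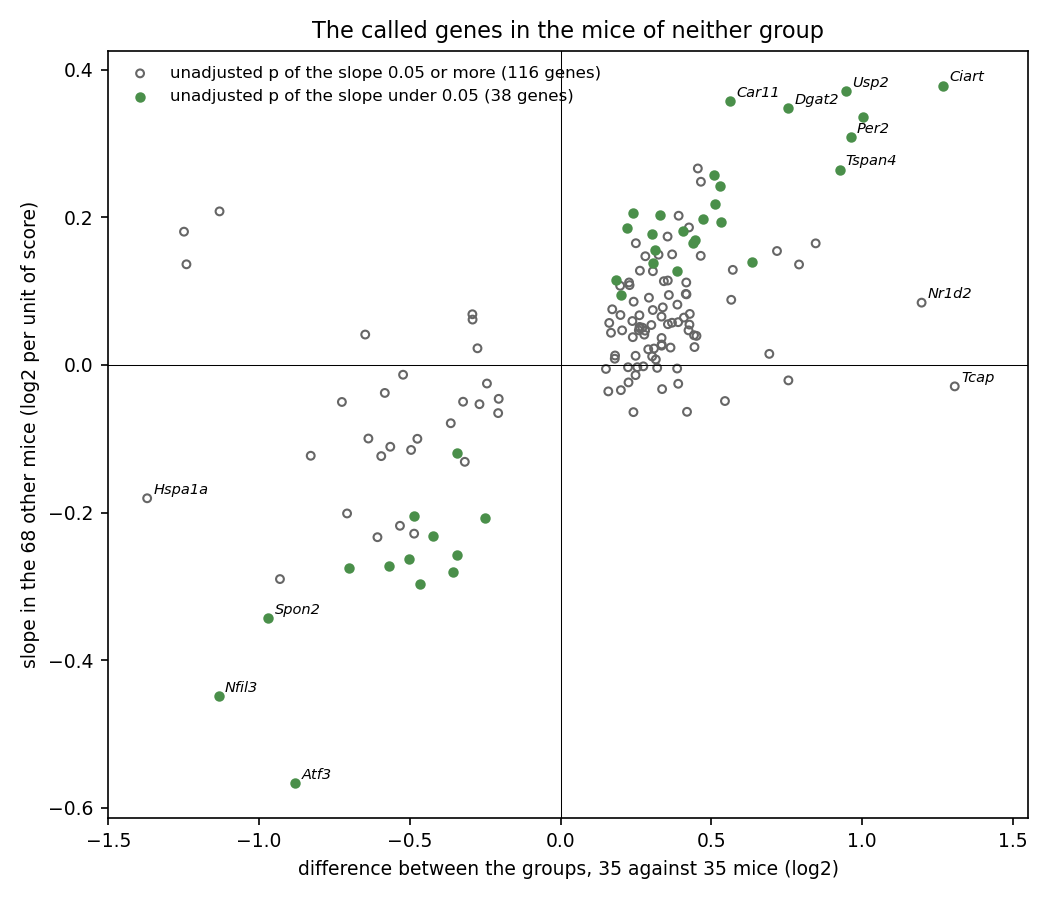
Each point is 1 of the genes called between the groups (0.933% of those tested), with the group difference (log2) on the horizontal axis and the slope in the 68 other mice (log2 per unit of score) on the vertical axis. Of the points, 130 lie in the quadrants of matching sign, and green points are the 38 genes with an unadjusted p of the slope under 0.05.

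The titles give each mouse a number whose meaning the labels do not state, with values from 35 to 87 in a low range and above 100 in a high range. The evening group held 13 mice of the low range and 22 of the high range, and the morning group 17 and 18 (Fisher's exact test, two-sided p = 0.469). All genes called between the groups had the same sign of difference within both ranges. The ranges divide the same mice in which these genes were called, so matching signs were favoured beforehand and are no separate check. No gene passed for a change of the group difference between the ranges in limma, and 596 (3.61%) had an unadjusted p under 0.05. Within the low range alone 7 genes passed and within the high range 96, so that a gene called in one range and not in the other is not shown to differ between them. Ciart had 1.23 in the low and 1.27 in the high range (adjusted p 0.01 and 1.91e-05), Nr1d2 1.25 and 1.15 (adjusted p 0.00203 and 0.000158) and Nfil3 -1.05 and -1.20 (adjusted p 0.00189 and 7.4e-05). Hspa1a had -1.12 and -1.65, and Atf3 -0.48 and -1.22, both passing in the high range only (adjusted p 0.0491 and 0.0262).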

How the data were processed

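Lung RNA of 138 mice was measured on Illumina WG6v2 arrays, and the number of arrays limits the precision. Raw probe intensity and a detection p-value per probe and mouse were deposited by the authors in a non-normalized table. The authors also deposited log2 values, which per the submitters' processing notes and the labels came from GenomeStudio, R 2.9.2 and RMA with quantile normalization. The clock score was computed from those log2 values. For all tests the raw intensity was background-corrected, quantile-normalized and put on the log2 scale with neqc of limma 3.58.1 (offset 16) in R 4.3.3. Of 45281 probes, 24450 were kept, those whose detection p-value fell under 0.05 in 14 mice or more. Probe names were updated through RefSeq (GRCm38.p6): 22864 probes by current symbol, 11917 by a unique synonym and 1187 by gene ID, while 9313 kept the name in the file. The brightest kept probe stood for each gene, and the 8 probes of the 6 score genes were left out, which left 16510 genes. Groups of 35 mice were compared with lmFit and eBayes, with Benjamini-Hochberg adjustment over all genes. The slope on the score was fitted the same way in the other 68 mice, and a group by title number range term was fitted in the 70. Genes named in the text were the 20 largest differences in each direction at an adjusted p under 0.05, detected in at least 35 of the 70 mice, passing over clones, predicted genes and names found only in the file, together with list members. The members, lists and tests were chosen with earlier results of these data known. Probes were designed on a reference sequence, and the effect of founder alleles on hybridisation was not tested. A result on 1 list member is not reported here.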

Additional observations from a re-analysis of the deposited data

How the results depend on the processing

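The number of genes called between the groups (0.933% of those tested) moved by more than 1.5 times under 3 settings. The slope on the score over all 138 mice called 292 genes, which held 93.5% of those called between the groups. Both fits use the same score and share the 70 mice compared, so a large overlap was favoured beforehand. Mice of the low title number range alone gave 7 calls and those of the high range 96, with fewer mice in each. The other 19 settings stayed within 1.5 times, with the fewest calls for the score without Nr1d1 or without Npas2 and the most, 217, without Arntl, and the share of calls that were higher, 72.7% between the groups, ran from 63.1% to 79.8% over these 19. It was 57.1% in the low and 80.2% in the high range. Groups of 20 gave 168 calls and groups of 50 gave 201. No named gene changed sign under any setting run. Ciart, Nr1d2, Tspan4, Nfil3 and Clock kept their call under all 22 settings and Tex11 under the 21 in which it was tested, whereas Stc1 and Chordc1 lost it under 10, Tcap under 7, Rhpn2 under 6 and Zfp36, Gdpd2 and Spry4 under 5. Called heat shock genes numbered between 0 and 4 and immediate early genes between 0 and 7, the most with the slope over all mice. Leaving out the least correlated array of the 70 and keeping predicted gene names, both among the 19, were chosen after seeing the data. A chip effect was planned as a block and not run, since the columns used here give no chip. No paired analysis was possible because each mouse is the only one of its line. Dim probes, such as that of Npas2, limit what their levels can show.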

Other observations

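Further genes were called lower in the evening group. Socs3, a feedback inhibitor of JAK-STAT signalling, ran from 9.06 through a median of 9.83 to 10.62 in the evening group and from 9.38 through 10.36 to 11.77 in the morning group. Its difference was -0.47 ± 0.12 (limma adjusted p 0.0252). Cebpb, a transcription factor of acute phase and macrophage responses, had -0.27 ± 0.05 (adjusted p 0.000638), with 32 of 35 evening mice below the morning median, and Sbno2 had -0.48 ± 0.13 (adjusted p 0.0405). Plaur, the urokinase receptor, had -0.34 ± 0.09 (adjusted p 0.0284). These genes were picked after their values were seen.

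Others were called higher. Acsl1, which activates long-chain fatty acids, rose by 0.39 ± 0.09 (adjusted p 0.00663), and Slc5a6, the sodium-dependent multivitamin transporter, by 0.34 ± 0.06 (adjusted p 3.53e-05), with 34 of 35 evening mice above the morning median. Eef2k, the kinase that slows translation elongation, rose by 0.38 ± 0.05 (adjusted p 1.6e-06), and 17 evening mice lay above every morning mouse. Ptgis, prostacyclin synthase, rose by 0.26 ± 0.06 (adjusted p 0.00489). Cipc rose by 0.33 ± 0.06 (adjusted p 0.000189), and its slope in the other 68 mice was 0.20 ± 0.05 log2 per unit of score (unadjusted p 0.000123). These genes too were picked after their values were seen.

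MT-ND4, a mitochondrial transcript, was called lower at -1.25 ± 0.30 (adjusted p 0.0169). It ran from 7.06 through 12.26 to 12.80 in the evening group and from 10.22 through 12.55 to 12.81 in the morning group, so that the lowest values differed by more than the medians.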
